A study of Homo sapiens with 12 samples.

Results

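Collagens are the most abundant proteins of the extracellular matrix, and each molecule is a triple helix wound from α chains encoded by COL genes. The collagen chain genes described here are the rows of the deposited count table whose symbol reads COL, a type number, A and a chain number, with nothing more. They numbered 44 of 26485 rows. The libraries came from PEO1 and COV362, established human ovarian carcinoma lines, each given 20 nM prexasertib or DMSO vehicle. Prexasertib blocks the checkpoint kinase CHK1 and, less strongly, CHK2. The 4 groups were PEO1 with prexasertib, PEO1 with DMSO, COV362 with prexasertib and COV362 with DMSO, with 3 libraries each, lettered A, B and C. All groups were grown in the same serum-containing medium, how long the drug was left on is not stated, and a difference between the lines describes these lines only. The labels do not say that libraries of a group came from separate cultures, so p-values measure only the spread between these samples, which may be technical.

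Fibrillar collagens (types I, II, III, V, XI, XXIV and XXVII) assemble into the banded fibrils that give tissue its tensile strength, and fibroblasts are their main source. Basement membrane collagens (here the type IV, XV and XVIII chains) form the sheet on which epithelia rest: type IV chains join into a network, and type XVIII is a heparan sulphate proteoglycan whose C-terminal fragment is endostatin. The remaining types include beaded filaments (VI), anchoring fibrils (VII), short-chain networks (VIII), chains that decorate fibrils (IX, XII, XVI, XXII) and transmembrane collagens (XIII, XVII, XXIII). In the normal ovary and in serous carcinoma, epithelial cells contribute basement membrane collagen and stromal cells contribute most fibrillar collagen.

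A chain was taken as expressed with 10 or more counts in 3 or more of the 12 libraries. By that rule 26 chains were expressed: 5 of 11 fibrillar, 7 of 8 basement membrane and 14 of 25 other chains. The expressed fibrillar chains were COL1A1, COL5A1, COL5A2, COL11A2 and COL27A1. Type IV was represented by all 6 of its chains and type XVIII by COL18A1, while COL15A1 was not expressed. The other expressed chains were COL6A1, COL6A2, COL6A3, COL7A1, COL8A1, COL9A2, COL9A3, COL12A1, COL13A1, COL16A1, COL17A1, COL22A1, COL23A1 and COL26A1. Just inside the threshold was COL6A3, with 0, 12 and 6 counts in PEO1 with prexasertib and 10, 10 and 3 counts in PEO1 with DMSO. Just outside it were COL6A5, COL8A2 and COL28A1, each with 10 or more counts in 1 library. The other chains not expressed were COL1A2, COL2A1, COL3A1, COL5A3, COL6A6, COL9A1, COL10A1, COL11A1, COL14A1, COL15A1, COL19A1, COL20A1, COL21A1, COL24A1 and COL25A1, which held 0 to 9 counts in any library. COL9A1 had no count in any library. Of the expressed chains, 24 passed edgeR's filter on low counts and were tested, and COL4A3 and COL6A3 did not pass. A chain passes that filter through the group where it is high, so the tested chains are not all chains.

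The type IV genes lie in the genome as head-to-head pairs. COL4A1 (chromosome 13, 110148958 to 110307157, minus strand) and COL4A2 (chromosome 13, 110307284 to 110513026, plus strand; both hg38, per the deposited table) are separated by 126 bases. COL4A6 (chromosome X, 108155607 to 108439497, minus strand) and COL4A5 (chromosome X, 108439844 to 108697545, plus strand) are separated by 346 bases, and COL4A4 and COL4A3 on chromosome 2 by 5 bases. The stretches between the starts are shown because the first pair held the most abundant collagen transcripts of PEO1 and fell with the drug, while the second was counted in PEO1 and was at 0 in every vehicle library of COV362. RefSeq's GRCh38.p14 promoter table gave an entry for 32 of the 44 chains. The first sequence is the whole interval between the RefSeq starts, chr13:110307158-110307283, and the second is the 250 bases before the COL4A5 start, chrX:108439588-108439837, both on the plus strand, with CCAAT boxes (CCAAT, or ATTGG on the plus strand) and GC boxes (GGGCGG) in capitals.
COL4A1 and COL4A2: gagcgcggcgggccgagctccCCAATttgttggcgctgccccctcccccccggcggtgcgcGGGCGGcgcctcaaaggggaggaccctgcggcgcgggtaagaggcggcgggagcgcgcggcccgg
COL4A5 and COL4A6: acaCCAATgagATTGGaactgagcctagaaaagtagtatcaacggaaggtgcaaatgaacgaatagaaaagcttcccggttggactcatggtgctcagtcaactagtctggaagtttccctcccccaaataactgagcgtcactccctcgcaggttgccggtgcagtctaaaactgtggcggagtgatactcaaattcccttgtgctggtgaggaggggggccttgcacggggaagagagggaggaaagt

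The COL4A1 and COL4A2 interval was 80.2% G and C and held 1 CCAAT box and 1 GC box. The COL4A5 stretch was 51.2% G and C and held 2 CCAAT boxes and 0 GC boxes. Neither held the TATA box letters TATAAA or the AP-1 letters TGANTCA, all searched on both strands. Of 27305 RefSeq promoters cut to the same length, 34.6% held a GC box and 21.9% a CCAAT box in 126 bases, and 42.3% and 33.0% in 250 bases. A match describes the letters only.

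Library totals ranged from 9390790 counts (COV362 DMSO A) to 18262805 counts (COV362 DMSO B). Levels of 1 chain are given as CPM, its counts scaled to the library size after TMM correction. Levels of different chains are compared per length, as RPKM, which divides CPM by the exon length in kilobases. RPKM summed over all 44 chains averaged 59.1 ± 9.31 in PEO1 with prexasertib and 99.5 ± 14.5 in PEO1 with DMSO (SD, n = 3 each). The ranges were 48.8 to 66.8 in treated libraries and 83.2 to 111 in vehicle libraries, and did not overlap (two-sided exact permutation p = 0.1, the smallest that 3 against 3 allows). In COV362 the sum averaged 71.5 ± 7.83 with prexasertib and 86.3 ± 15.8 with DMSO, and these ranges overlapped (two-sided exact permutation p = 0.2).

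The types made up this total differently in the lines. Basement membrane chains took 77.6% ± 0.292 of collagen RPKM in PEO1 with DMSO and 31.5% ± 0.971 in COV362 with DMSO, whereas fibrillar chains took 6.43% ± 0.460 and 24.2% ± 1.42 in the same groups. In PEO1 the basement membrane share was 63.8% ± 2.48 with prexasertib and 77.6% ± 0.292 with DMSO, and each treated library lay below each vehicle library (two-sided exact permutation p = 0.1, again the smallest possible). The share of other chains was 28.9% in PEO1 with prexasertib and 16.0% in PEO1 with DMSO. In COV362 the basement membrane share was 31.5% with prexasertib and 31.5% with DMSO. Shares of a sum are tied to each other, so a lower share of one type raises the rest. Stacked bars of summed RPKM show this for each library. Neither the sums nor the shares were corrected for each library's trends against exon length and GC content. With those trends removed, the log2 fold change of COL4A2 with the drug in PEO1 was −0.81 rather than −1.20.

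**Figure D1:**
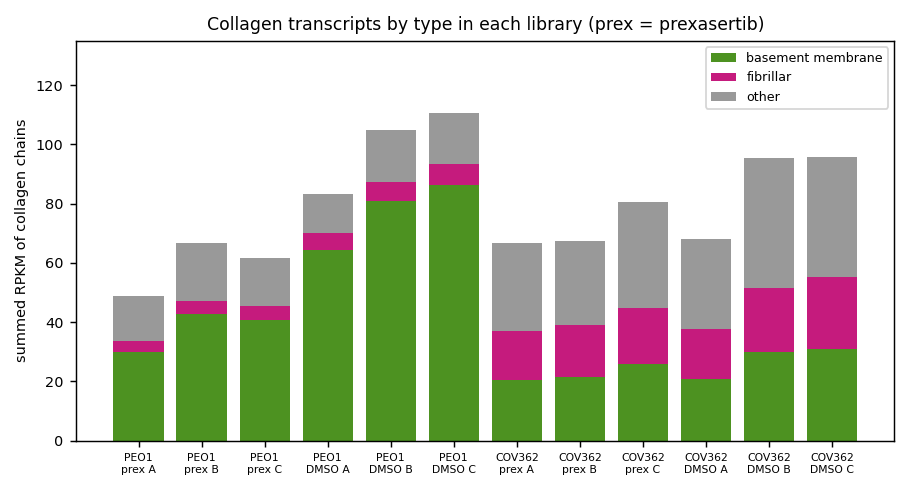
Summed RPKM of collagen chains in each of the 12 libraries (prex, prexasertib), split into basement membrane, fibrillar and other chains. The treated PEO1 libraries reach 48.8 to 66.8 and the vehicle PEO1 libraries 83.2 to 111, with most of the gap in the basement membrane part.

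In the vehicle libraries, the sets of chains above a count cut differed in part between the lines. By 10 or more counts in every DMSO library of the line, 10 chains were found in both lines, 7 in PEO1 alone and 6 in COV362 alone. The shared chains were COL1A1, COL4A1, COL4A2, COL5A1, COL5A2, COL6A1, COL8A1, COL12A1, COL18A1 and COL27A1. PEO1 alone had COL4A4, COL4A5, COL4A6, COL9A2, COL17A1, COL22A1 and COL23A1. COV362 alone had COL6A2, COL7A1, COL9A3, COL13A1, COL16A1 and COL26A1. Some of these chains lay near the cut in the other line. In COV362 DMSO A, B and C, COL4A4 had 2, 17 and 14 counts and COL9A2 7, 22 and 15 counts. COL17A1 had 6, 14 and 18 counts and COL23A1 8, 28 and 38 counts in the same libraries. Each of these fell under the cut only in library A, the shallowest of the 12 at 9390790 counts. The split by raw counts thus depends on depth. COL16A1 had 16, 7 and 21 counts in PEO1 with DMSO. The share of all genes split in this way was not counted. Between vehicle libraries of PEO1 and COV362, edgeR's quasi-likelihood (QL) test with Benjamini-Hochberg (BH) adjustment over all 14498 tested genes called 19 of 24 tested chains at an adjusted p under 0.05, 8 higher and 11 lower in PEO1. Over all tested genes 57.7% were called in that comparison (29.1% higher and 28.6% lower in PEO1). The median log2 fold change of the tested chains was −0.65, beside −0.01 for all tested genes. By type, basement membrane chains were called higher in PEO1 for 5 of 6 and lower for 1, fibrillar chains lower for 2 of 5, and other chains higher for 3 of 13 and lower for 8.

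The most abundant collagen transcripts per length were COL4A2 (45.7 ± 5.21 RPKM), COL4A1 (27.1 ± 5.60 RPKM) and COL8A1 (7.35 ± 2.54 RPKM) in PEO1 with DMSO. In COV362 with DMSO they were COL5A1 (16.5 ± 2.64 RPKM), COL4A2 (13.8 ± 2.93 RPKM) and COL6A1 (9.14 ± 1.53 RPKM). COL12A1 followed closely in COV362 at 8.75 ± 5.25 RPKM, and the spread of COL12A1 covered the level of COL6A1. The leading single chain was thus COL4A2 in PEO1 and COL5A1, the fibril-regulating α1 chain of type V, in COV362. COL4A1 and COL4A2 together took 73.2% ± 0.263 of collagen RPKM in PEO1 with DMSO and 23.2% ± 1.63 in COV362 with DMSO.

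**Figure D2:**
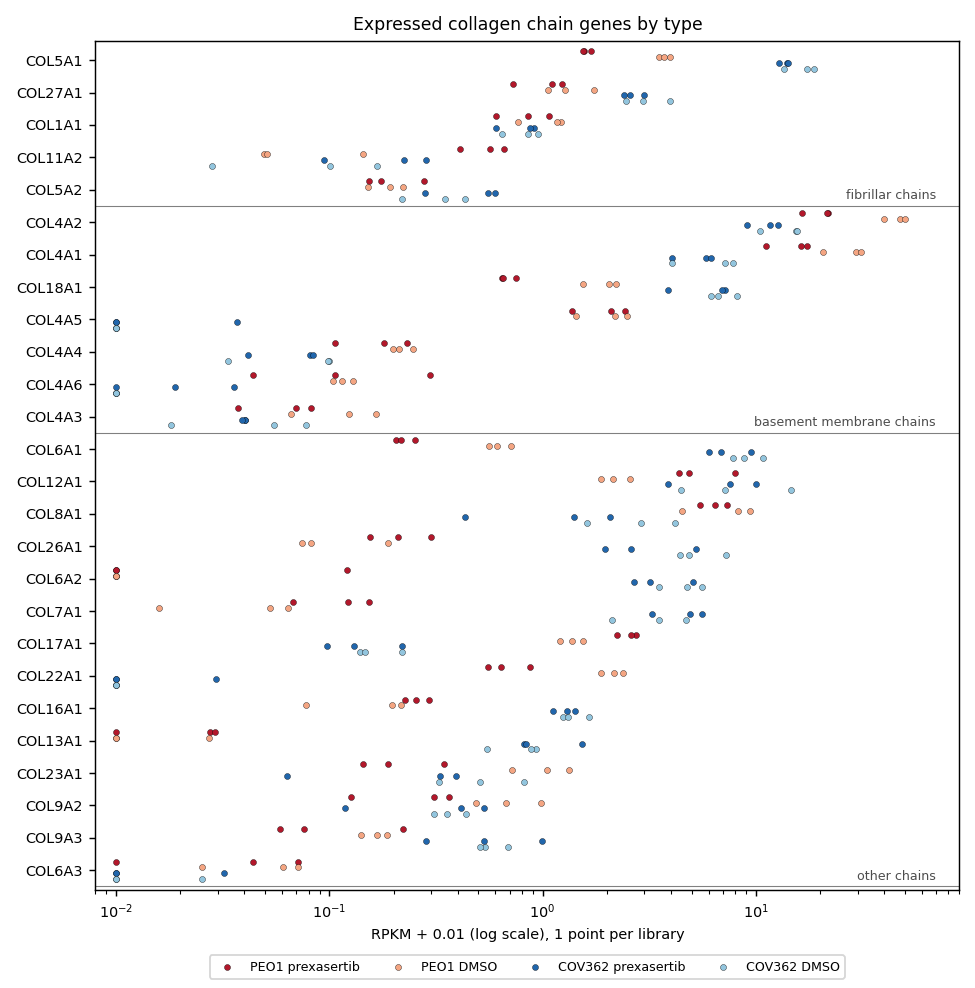
RPKM plus 0.01 on a log axis for the 26 expressed collagen chains, with 1 point for each of the 12 libraries, coloured by group and sorted into fibrillar, basement membrane and other chains. COL4A1 and COL4A2 lie farthest right in PEO1, COL5A1 leads in COV362 with DMSO, and chains at 0 counts lie at the left edge.

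COL4A1 and COL4A2 encode the 2 chains of the type IV network found in nearly every basement membrane. COL4A2 stood at 249.9, 296 and 313 CPM in PEO1 with DMSO, against 65.5, 97.0 and 97.6 CPM in COV362 with DMSO. The groups were well apart, with a log2 fold change of 1.72 ± 0.18 (SE; edgeR QL, BH-adjusted p = 2.76e-06). The log2 fold change of COL4A1 was 2.09 ± 0.26 (BH-adjusted p = 1.11e-05). COL4A5, whose chain pairs with α3 and α4 in the kidney and with α6 in smooth muscle and skin, had 142, 260 and 293 counts in PEO1 with DMSO and 0 counts in all COV362 DMSO libraries. That is at least 187-fold higher in PEO1, taking 3 counts over the group as the floor, which covers counting error only. COL4A6 had 11, 12 and 15 counts in PEO1 with DMSO and 0 in COV362 with DMSO, at least 10.2-fold higher. COL4A4 was at 2.16 ± 0.251 CPM in PEO1 with DMSO and 0.695 ± 0.392 CPM in COV362 with DMSO (log2 1.53 ± 0.49, BH-adjusted p = 0.0158). That call did not hold without PEO1 DMSO B (BH-adjusted p = 0.0519) or without COV362 DMSO A (BH-adjusted p = 0.0514). COL18A1 was the single basement membrane chain lower in PEO1, at 13.8, 10.5 and 15.005 CPM in PEO1 with DMSO, against 42.0, 45.2 and 55.5 CPM in COV362 with DMSO (−1.86 ± 0.23, BH-adjusted p = 1.00e-05).

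Of the fibrillar chains, COL5A1 and COL27A1 were lower in PEO1. COL5A1, whose chain nucleates and thins type I fibrils, was at 29.8, 31.5 and 33.7 CPM in PEO1 with DMSO, against 115, 147 and 159 CPM in COV362 with DMSO. No library of one line came near the other line, and the log2 fold change was −2.15 ± 0.14 (edgeR QL, BH-adjusted p = 1.51e-08). COL27A1, a short fibrillar chain of cartilage, was −1.21 ± 0.25 (BH-adjusted p = 0.000782). COL1A1, the α1 chain of type I, was at 6.18 ± 1.46 CPM in PEO1 with DMSO and 4.78 ± 0.943 CPM in COV362 with DMSO, and was not called (0.36 ± 0.29, BH-adjusted p = 0.307). COL1A2, the partner chain of type I, had 1, 1, 2 and 6 counts summed over the libraries of PEO1 with prexasertib, PEO1 with DMSO, COV362 with prexasertib and COV362 with DMSO, beside 255, 326, 209 and 208 counts of COL1A1.

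Among the other chains, 8 were called lower in PEO1, and the type VI genes did not all differ in the same direction. COL6A1 was at 2.54, 2.33 and 2.97 CPM in PEO1 with DMSO, against 33.1, 37.0 and 45.7 CPM in COV362 with DMSO (−3.88 ± 0.22, edgeR QL, BH-adjusted p = 5.88e-09). COL6A2, its obligate partner in the type VI monomer, had 0 counts in every PEO1 DMSO library and 126, 375 and 372 counts in COV362 with DMSO. COL6A2 was therefore at least 361-fold lower in PEO1. The third chain of the type VI monomer, COL6A3, did not pass the filter, with 10, 10 and 3 counts in PEO1 with DMSO and 0, 3 and 0 counts in COV362 with DMSO. COL6A5, a type VI chain below the expression threshold, had 4, 12 and 8 counts in PEO1 with DMSO and 0 in every COV362 DMSO library, at least 6.45-fold higher in PEO1 and not tested. COL7A1, the anchoring fibril chain of squamous epithelia, was at 0.313 ± 0.230 CPM in PEO1 with DMSO and 31.4 ± 11.9 CPM in COV362 with DMSO (−6.64 ± 0.49, BH-adjusted p = 7.26e-08). The transmembrane chain COL13A1 (−6.49) and COL26A1, described from mouse testis and ovary (−5.63), differed in the same direction, as did the fibril-associated chains COL16A1 (−3.18), COL12A1 (−2.01) and COL9A3 (−1.84). Leaving out COV362 DMSO B moved COL12A1 to −1.42, and leaving out PEO1 DMSO B moved COL13A1 to −8.27 and COL26A1 to −6.26, all still called. Both PEO1 DMSO libraries then left held 0 counts of COL13A1, so its fitted value depends on the prior count. The COL9A3 call did not hold without PEO1 DMSO B (BH-adjusted p = 0.0616), and 146 exon bases of COL9A3 overlap TCFL5 on the opposite strand, so its counts are uncertain in these libraries without strand.

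Chains higher in PEO1 were COL22A1, COL17A1 and COL8A1. COL22A1, a chain of tissue junctions such as those of muscle and tendon, had 183, 251 and 273 counts in PEO1 with DMSO and 0 in COV362 with DMSO, at least 190.0-fold higher. COL17A1, the transmembrane collagen of hemidesmosomes, was at 7.66 ± 0.961 CPM in PEO1 with DMSO and 0.888 ± 0.247 CPM in COV362 with DMSO (3.07 ± 0.31, edgeR QL, BH-adjusted p = 1.36e-06). COL8A1, a network-forming chain known from the basement membrane of the cornea and from vessel walls, was at 13.9, 28.9 and 25.3 CPM in PEO1 with DMSO, against 4.96, 12.9 and 8.92 CPM in COV362 with DMSO. It was called at 1.32 ± 0.42 (BH-adjusted p = 0.0150), but not without PEO1 DMSO B (BH-adjusted p = 0.0673). Chains not called were COL1A1, COL5A2, COL9A2, COL11A2 and COL23A1. A scatter of the vehicle means sets these chains against the line of equal level.

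**Figure D3:**
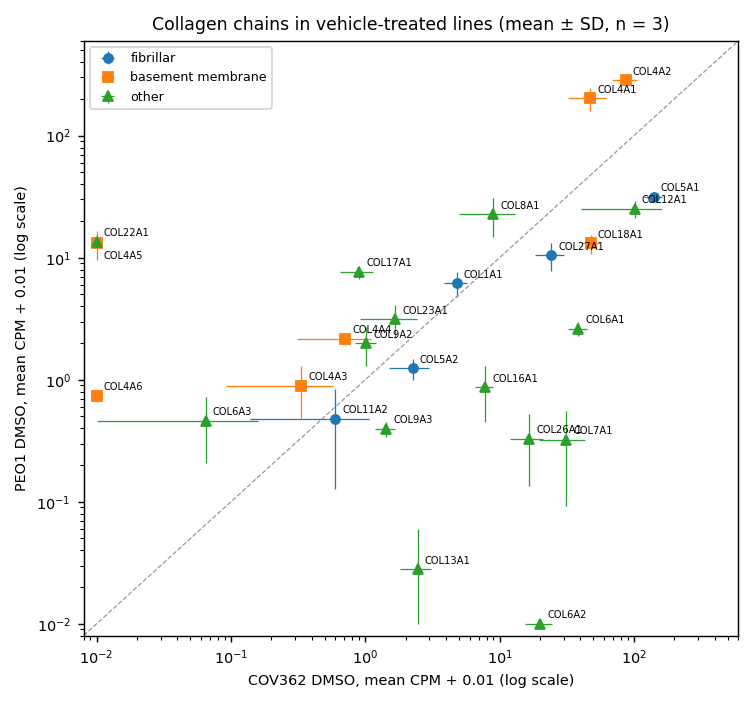
Mean CPM plus 0.01 of the 26 expressed collagen chains in PEO1 with DMSO (vertical) against COV362 with DMSO (horizontal), both on log scales, with SD over 3 libraries as bars and the dashed line marking equal levels. COL4A1, COL4A2, COL4A5, COL17A1 and COL22A1 lie above the line, and COL6A1, COL6A2, COL7A1, COL13A1 and COL26A1 far below it.

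Prexasertib changed 10 of 24 tested collagen chains in PEO1, 7 lower and 3 higher. Over all tested genes 29.3% were called in that comparison (14.7% higher and 14.6% lower). That share is the background for the chains' count, and nothing particular to collagen is read from it. Their median log2 fold change was −0.27, beside 0.01 for all tested genes. Before adjustment 12 chains had p under 0.05. In RNA from whole cultures, fewer cells with a transcript and less of it per cell cannot be told apart. The chains that fell were COL4A1, COL4A2, COL18A1, COL5A1, COL6A1, COL22A1 and COL23A1. COL11A2, COL12A1 and COL17A1 rose. For each of these 10 chains, no treated PEO1 library overlapped a vehicle PEO1 library, which their selection by the test favours. The ranges of COL7A1, COL9A2 and COL16A1 did not overlap either, and these chains were not called. The share of all tested genes without overlap was not counted.

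The basement membrane group moved in 1 direction among its called chains, with 3 of 6 tested chains lower and 0 higher. COL4A2 was at 103, 136 and 134 CPM in PEO1 with prexasertib, against 249.9, 296 and 313 CPM in PEO1 with DMSO. The treated libraries were all below 140 and the vehicle libraries all near 250 or above, which made COL4A2 2.30-fold lower with the drug (log2 −1.20 ± 0.18, edgeR QL, BH-adjusted p = 0.000364). Removing each library's trend against exon length and GC content gave a smaller fall of COL4A2, −0.81, still called (BH-adjusted p = 0.000561). COL4A1 was at 83.0, 129.99 and 121 CPM in PEO1 with prexasertib, against 154, 221 and 231 CPM in PEO1 with DMSO. Letter A was the lowest in both groups, and vehicle A lay nearest to the treated libraries. The log2 fold change of COL4A1 was −0.86 ± 0.25 (edgeR QL, BH-adjusted p = 0.0197). That call did not hold without PEO1 DMSO B (BH-adjusted p = 0.0546), PEO1 DMSO C (BH-adjusted p = 0.0588) or PEO1 prexasertib A (BH-adjusted p = 0.0685), with changes of −0.84, −0.81 and −0.74.

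COL18A1 had the largest fitted fall of the basement membrane chains. It was at 5.05, 4.34 and 4.34 CPM in PEO1 with prexasertib, against 13.8, 10.5 and 15.005 CPM in PEO1 with DMSO. The treated libraries were close together and far under the lowest vehicle library, 2.86-fold lower (−1.52 ± 0.24, edgeR QL, BH-adjusted p = 0.000518). With each library's trend against exon length and GC content removed, the change was smaller, −0.90, and still called (BH-adjusted p = 0.00120). COL4A5 did not pass the test: it was at 8.92, 15.8 and 13.6 CPM in PEO1 with prexasertib, against 9.26, 14.1 and 16.1 CPM in PEO1 with DMSO (−0.04 ± 0.33, BH-adjusted p = 0.940). Its head-to-head neighbour COL4A6 (0.40 ± 0.72) and COL4A4 (−0.36 ± 0.45) were not called either.

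**Figure D4:**
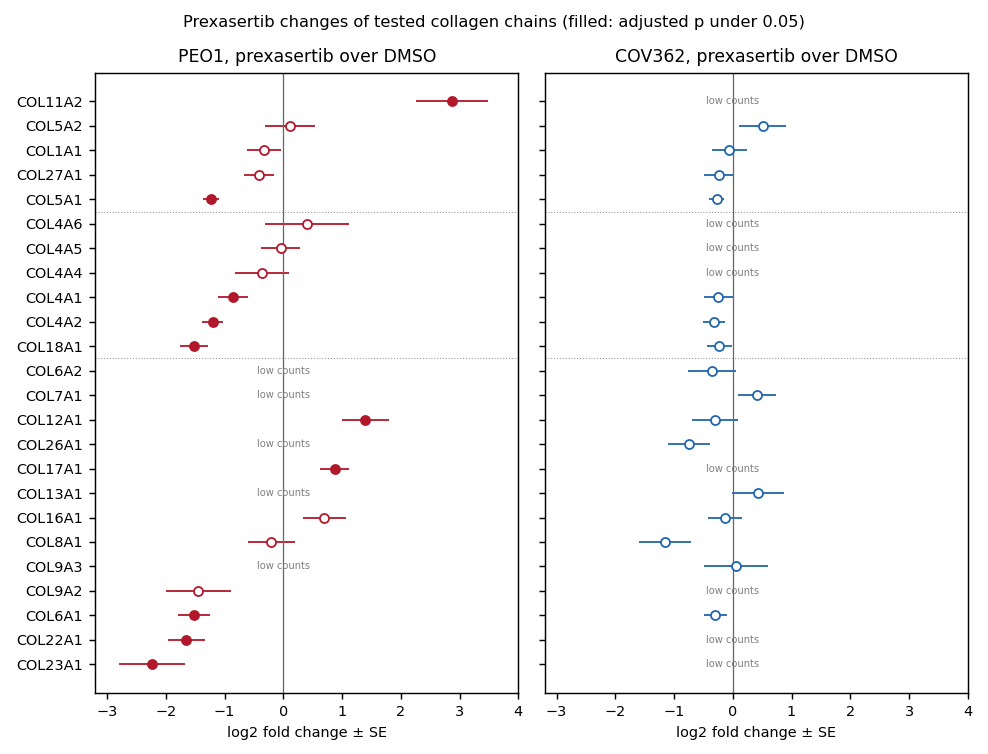
Log2 fold change of each tested collagen chain with prexasertib, PEO1 and COV362, with SE from the edgeR fit as bars, grouped by type. In PEO1, COL4A1, COL4A2, COL18A1, COL5A1, COL6A1, COL22A1 and COL23A1 lie below 0 and COL11A2, COL12A1 and COL17A1 above it among called chains, and no chain of COV362 is called. "Low counts" marks a chain without 10 counts in every library of either group of that line.

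Of the 5 fibrillar chains tested, 1 fell and 1 rose in PEO1. COL5A1 was at 14.3, 13.2 and 13.03 CPM in PEO1 with prexasertib, against 29.8, 31.5 and 33.7 CPM in PEO1 with DMSO. Both groups were tight, and COL5A1 was 2.35-fold lower with the drug (−1.23 ± 0.14, edgeR QL, BH-adjusted p = 3.72e-05), the lowest p of the tested chains. With length and GC trends removed, the fall of COL5A1 was smaller, −0.98, and still called (edgeR QL, BH-adjusted p = 1.21e-05). COL11A2, a chain of cartilage fibrils, was at 4.28, 2.64 and 3.68 CPM in PEO1 with prexasertib, against 0.261, 0.271 and 0.879 CPM in PEO1 with DMSO. The vehicle libraries held 4, 5 and 16 counts, and the change of 2.87 ± 0.61 (7.31-fold, BH-adjusted p = 0.00353) thus rests on few vehicle reads. Without PEO1 DMSO C, the library with 16, it was 3.63. COL11A2 is listed on chromosome 6 and on alternate sequences of that region, so reads that fit several copies make its counts uncertain. COL1A1 (−0.33), COL27A1 (−0.42) and COL5A2 (0.11) were not called.

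Of the 13 other chains tested, 3 fell and 2 rose in PEO1. COL6A1 was at 0.822, 0.879 and 1.03 CPM in PEO1 with prexasertib, against 2.54, 2.33 and 2.97 CPM in PEO1 with DMSO, or 14 to 17 counts against 39 to 54. The groups were apart, at −1.52 ± 0.27 (edgeR QL, BH-adjusted p = 0.000981), and with length and GC trends removed the value was −1.01 (BH-adjusted p = 0.00317). COL22A1 was at 5.46, 3.46 and 3.98 CPM in PEO1 with prexasertib, against 11.9, 13.6 and 15.005 CPM in PEO1 with DMSO. Every treated library lay far below the lowest vehicle library, a change of −1.65 ± 0.31 (BH-adjusted p = 0.00233). COL23A1, a transmembrane collagen, was at 0.411, 0.549 and 1.03 CPM in PEO1 with prexasertib, against 4.04, 2.17 and 3.19 CPM in PEO1 with DMSO (−2.23 ± 0.56, 4.70-fold lower, BH-adjusted p = 0.00945). With length and GC trends removed, COL23A1 was at −1.61 (BH-adjusted p = 0.0361).

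The chains that rose in this group were COL12A1 and COL17A1. COL12A1, which binds to type I fibrils, was at 50.6, 92.3 and 55.9 CPM in PEO1 with prexasertib, against 21.6, 24.5 and 29.5 CPM in PEO1 with DMSO. Treated library B was the highest by a wide margin. The change of 1.39 ± 0.40 (2.63-fold, edgeR QL, BH-adjusted p = 0.0186) was not called without PEO1 prexasertib B (1.03, BH-adjusted p = 0.101), PEO1 DMSO A (1.24, BH-adjusted p = 0.0778) or PEO1 DMSO B (1.32, BH-adjusted p = 0.0694). COL17A1 was at 15.4, 14.4 and 12.4 CPM in PEO1 with prexasertib, against 7.63, 8.63 and 6.71 CPM in PEO1 with DMSO. The groups did not overlap, and the change of 0.88 ± 0.25 (1.84-fold, BH-adjusted p = 0.0164) was lost without PEO1 DMSO A (BH-adjusted p = 0.0668), PEO1 DMSO C (BH-adjusted p = 0.0895), PEO1 prexasertib A (BH-adjusted p = 0.0761) or PEO1 prexasertib B (BH-adjusted p = 0.0709). COL7A1 (1.61 ± 0.62, BH-adjusted p = 0.0638) and COL9A2 (−1.45 ± 0.56, BH-adjusted p = 0.0643) missed the threshold. Both were called with DESeq2 (BH-adjusted p = 0.0118 and 0.0311) and in edgeR with the letter as a block (BH-adjusted p = 0.0232 and 0.0281). With length and GC trends removed, COL7A1 was called (2.07, BH-adjusted p = 0.00738) and COL9A2 was not (−0.87, BH-adjusted p = 0.199). COL8A1, the third chain by RPKM in PEO1, was at 16.9, 22.6 and 19.8 CPM in PEO1 with prexasertib, against 13.9, 28.9 and 25.3 CPM in PEO1 with DMSO, and these ranges overlapped (−0.20 ± 0.40, BH-adjusted p = 0.744). COL6A2 had 8 counts in 1 treated library and 0 in the other PEO1 libraries.

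**Figure D5:**
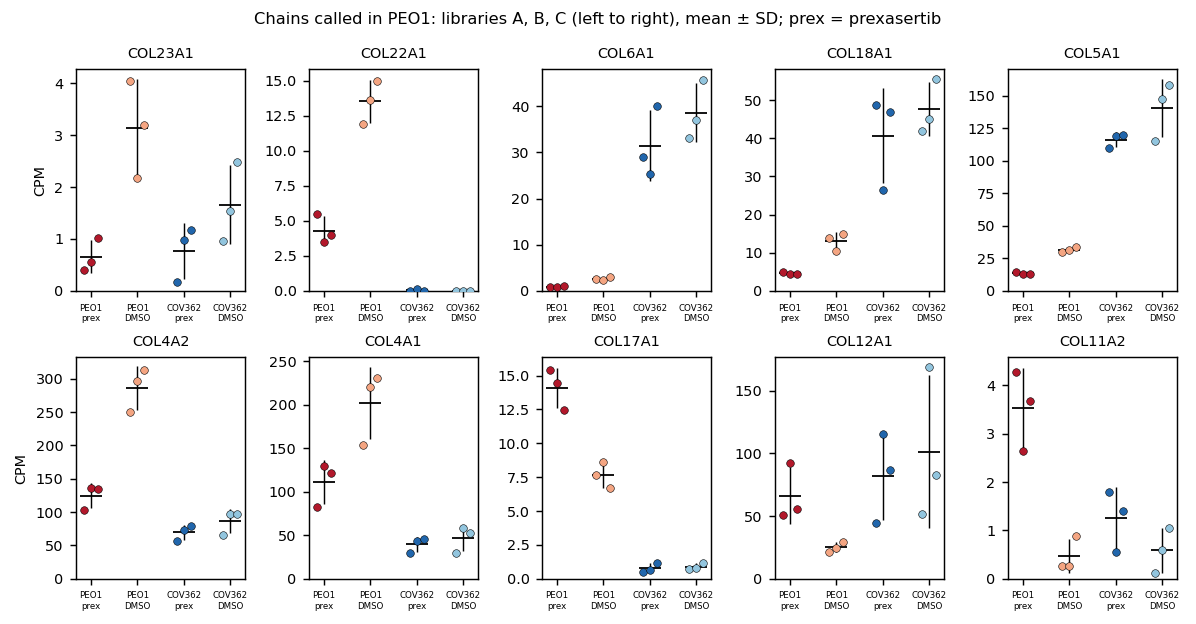
CPM in each library (points) for collagen chains called with prexasertib in PEO1, shown in PEO1 and COV362 with treated libraries left of vehicle libraries. In PEO1 the treated points of COL4A2 (103 to 136 CPM) lie below the vehicle points (249.9 to 313 CPM), and those of COL12A1 (50.6 to 92.3 CPM) above them (21.6 to 29.5 CPM).

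In COV362, edgeR's QL test called 0 of 24 tested chains, against a background of 0.828% of all tested genes (0.607% higher and 0.221% lower). Before adjustment 1 chain, COL8A1, had p under 0.05, and DESeq2 and limma-voom called 0 as well. The median change was −0.20, beside −0.01 for all tested genes. COL8A1 was at 1.31, 4.32 and 6.35 CPM in COV362 with prexasertib, against 4.96, 12.9 and 8.92 CPM in COV362 with DMSO. The ranges overlapped, but under each letter the treated library was the lower (−1.16 ± 0.44, edgeR QL, BH-adjusted p = 0.282). In this line deviations of same-lettered libraries correlated positively, though for C at only 0.133, and whether letters pair is not settled. A fit in edgeR with the letter as a block called 3 chains lower: COL8A1 (−1.16, BH-adjusted p = 0.00530), COL4A2 (−0.31, BH-adjusted p = 0.0272) and COL26A1 (−0.82, BH-adjusted p = 0.0344). With the block, 9.65% of all tested genes were called in COV362. COL26A1 was at 15.9, 5.92 and 7.88 CPM in COV362 with prexasertib, against 21.9, 13.4 and 14.7 CPM in COV362 with DMSO. COL4A2 was at 56.6, 73.0 and 79.1 CPM in COV362 with prexasertib, against 65.5, 97.0 and 97.6 CPM in COV362 with DMSO. COL4A1 was at 30.0, 43.7 and 46.1 CPM in COV362 with prexasertib, against 30.1, 57.9 and 53.2 CPM in COV362 with DMSO (−0.24 ± 0.25, edgeR QL, BH-adjusted p = 0.775).

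The leading chain of COV362, COL5A1, was at 109.5, 119 and 120.2 CPM in COV362 with prexasertib, against 115, 147 and 159 CPM in COV362 with DMSO. The lowest vehicle library lay among the treated ones (−0.27 ± 0.13, edgeR QL, BH-adjusted p = 0.409). COL6A1 was at 28.9, 25.4 and 40.1 CPM in COV362 with prexasertib, against 33.1, 37.0 and 45.7 CPM in COV362 with DMSO (−0.30 ± 0.19, BH-adjusted p = 0.578). COL12A1 varied most among libraries, at 44.5, 115 and 87.1 CPM with prexasertib and 51.8, 169 and 83.0 CPM with DMSO in COV362 (−0.30 ± 0.39, BH-adjusted p = 0.830). Library B was the highest and library A the lowest in both of these groups.

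Whether the drug change differed between the lines was tested as the change in PEO1 minus the change in COV362. Of 24 tested chains, 3 were called, each with the more negative change in PEO1, beside 6.1% of all tested genes (3.14% higher and 2.97% lower). These were COL5A1 (−0.96 ± 0.19, edgeR QL, BH-adjusted p = 0.0135), COL18A1 (−1.29 ± 0.32, BH-adjusted p = 0.0355) and COL6A1 (−1.22 ± 0.33, BH-adjusted p = 0.0437). COL5A1 changed by −1.23 in PEO1 and −0.27 in COV362. COL18A1 changed by −1.52 in PEO1 and −0.23 in COV362, and COL6A1 by −1.52 in PEO1 and −0.30 in COV362. COL18A1 was at 48.7, 26.3 and 47.0 CPM in COV362 with prexasertib, against 42.0, 45.2 and 55.5 CPM in COV362 with DMSO. The COL5A1 call held in each of 12 fits that left out 1 library. With length and GC trends removed, the COL5A1 difference was smaller, −0.80, and still called (edgeR QL, BH-adjusted p = 0.00554). COL18A1 was no longer called in 8 of these, leaving out COV362 DMSO B, COV362 prexasertib A or C, PEO1 DMSO A or C, or PEO1 prexasertib A, B or C (BH-adjusted p of 0.0526 to 0.0902). COL6A1 was no longer called in 10, which left out any library but COV362 DMSO C and COV362 prexasertib B (BH-adjusted p of 0.0543 to 0.0963). COL4A2 (−0.88 ± 0.26, BH-adjusted p = 0.0556) and COL12A1 (1.70 ± 0.56, BH-adjusted p = 0.0854) missed the threshold. COL18A1 and COL6A1 were also not called with limma-voom (BH-adjusted p = 0.0768 and 0.1503) or with length and GC trends removed, where the differences were −0.72 (BH-adjusted p = 0.0719) and −0.68 (BH-adjusted p = 0.137).

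Correlations of same-lettered deviations from the group means were positive in both lines. They were 0.410, 0.423 and 0.133 for A, B and C in COV362, and 0.302, 0.171 and 0.0813 in PEO1. Not every letter correlated best with itself. Prexasertib B of PEO1 did so with DMSO C (0.222), and prexasertib C of COV362 with DMSO B (0.138). With the letter as a block, 9 chains were called for the difference between the lines, beside 29.1% of all tested genes. These included all 3 chains above and COL4A2 (−0.89, edgeR QL, BH-adjusted p = 2.68e-05), COL4A1 (−0.64, BH-adjusted p = 0.00131), COL12A1 (1.59, BH-adjusted p = 0.000147), COL8A1 (1.03, BH-adjusted p = 0.0220), COL26A1 (1.72, BH-adjusted p = 0.0230) and COL6A2 (BH-adjusted p = 0.0379). The COL6A2 value rests on 8 counts in 1 PEO1 library.

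Chains of 1 molecule did not always move together. The ratio of COL4A1 to COL4A2 RPKM was 0.678, 0.803 and 0.759 in PEO1 with prexasertib, against 0.519, 0.627 and 0.6204 in PEO1 with DMSO. Both chains fell, COL4A2 by more in the fit, and the ranges of the ratio did not overlap (two-sided exact permutation p = 0.1, the smallest possible). With length and GC trends removed, the changes in PEO1 were close to each other, −0.80 for COL4A1 and −0.81 for COL4A2. In COV362 the ratio was 0.479 ± 0.0304 with prexasertib and 0.448 ± 0.0582 with DMSO (two-sided exact permutation p = 0.6, n = 3 each). For type V, COL5A1 RPKM was 8.88 ± 2.96 times that of COL5A2 in PEO1 with prexasertib and 21.4 ± 3.66 times in PEO1 with DMSO, and these ranges also did not overlap (two-sided exact permutation p = 0.1, the smallest possible). In COV362 that ratio was 32.4 ± 12.99 with prexasertib and 53.3 ± 10.5 with DMSO, lower with the drug under each letter, with ranges that overlapped (two-sided exact permutation p = 0.2, n = 3 each). In PEO1 COL5A1 fell and COL5A2 was not called. In COV362, where both type VI chains were counted, COL6A1 RPKM was 2.09 times that of COL6A2 with prexasertib and 2.01 times with DMSO.

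Genes that make, process or bind collagen were read from lists chosen with earlier results of these data known. Of 19 tested folding and modifying enzymes, 10 fell and 3 rose with prexasertib in PEO1 (median −0.58, beside 0.01 for all tested genes). This count and those of the lists below stand beside 14.7% of all tested genes higher and 14.6% lower in PEO1, and nothing particular to a list is read from them. P4HA3, a prolyl hydroxylase subunit, was at 0.595 ± 0.208 CPM with prexasertib and 1.56 ± 0.540 CPM with DMSO (−1.37 ± 0.46, edgeR QL, BH-adjusted p = 0.0377), and the prolyl isomerase gene FKBP14 was at 17.8 ± 1.91 and 8.60 ± 0.518 CPM in the same groups (1.05 ± 0.20, BH-adjusted p = 0.00199). The P4HA3 call did not hold without COV362 DMSO B or C, COV362 prexasertib C, PEO1 DMSO A or B, or PEO1 prexasertib B or C (BH-adjusted p of 0.0505 to 0.130) or with no filter on low counts (BH-adjusted p = 0.0637), and FKBP14 was at 0.68 with length and GC trends removed. Of 13 processing and crosslinking enzymes, 5 fell and 0 rose (median −0.74). These were the lysyl oxidases LOXL1 (−2.47 ± 0.24, BH-adjusted p = 1.47e-05; −1.77 with length and GC trends removed), LOXL2 (−1.57 ± 0.17, BH-adjusted p = 2.83e-05) and LOXL4 (−1.07), the procollagen C-proteinase gene BMP1 (−0.66), and PXDN (−0.74), which forms the sulfilimine crosslinks of type IV. BMP1 was not called with length and GC trends removed (−0.28, BH-adjusted p = 0.186) or without PEO1 prexasertib B (BH-adjusted p = 0.0519). Of 10 collagen receptors, 2 rose and 4 fell, with the fibrillar collagen receptor DDR2 at 2.28 ± 0.54 (BH-adjusted p = 0.00621; limma-voom, BH-adjusted p = 0.0859) and the endocytic receptor MRC2 at −1.93 ± 0.27 (BH-adjusted p = 0.000217). Of 15 laminin chains and basement membrane partners, 2 rose and 4 fell, with the laminin genes LAMA2 at 2.29 ± 0.25 (BH-adjusted p = 2.89e-05) and LAMA5 at −1.44 ± 0.29 (BH-adjusted p = 0.00253; −0.94 with length and GC trends removed). In COV362, edgeR called 0 of 57 tested genes of these 4 lists, with 7 under an unadjusted p of 0.05. DESeq2 called 2 of them, beside 3.68% of all tested genes, and limma-voom 0. The fit with the letter as a block called 7, beside 9.65% of all tested genes.

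Cell type markers were set beside these values. Keratin genes and PAX8 were counted in both lines, while the epithelial gene CDH1 averaged 101 CPM with prexasertib and 114 CPM with DMSO in PEO1, and 0.285 CPM with prexasertib and 0.346 CPM with DMSO in COV362, where that defining marker was near 0. Of 8 epithelial and ovarian carcinoma markers, 5 fell in PEO1 with the drug (KRT7, KRT8, KRT18, PAX8 and WT1), and the list summed to 3525 to 4105 CPM in PEO1 with prexasertib and 6638 to 7752 CPM in PEO1 with DMSO. The 8 fibroblast and mural markers summed to 63.9 to 81.8 CPM in PEO1 with prexasertib and 220.3 to 294 CPM in PEO1 with DMSO, nearly all from THY1, which averaged 65.6 CPM with prexasertib and 248 CPM with DMSO. In PEO1, THY1 fell and PDGFRA rose, with PDGFRA at 0.212 CPM with prexasertib, against 0 CPM with DMSO. The treated libraries held 0.176 to 0.241 CPM of PDGFRA, so its rise rests on few reads near the floor. LUM was at 0 in all libraries, and DCN was at 0 in both DMSO groups and in COV362 with prexasertib. The 6 endothelial markers summed to 1.87 to 4.58 CPM in PEO1 with prexasertib and 6.49 to 7.76 CPM in PEO1 with DMSO. In COV362 they summed to 56.0 to 56.7 CPM with prexasertib and 82.5 to 96.8 CPM with DMSO, mostly from CDH5. The part of the keratin genes, THY1 and CDH5 in the collagen values was not tested.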

How the data were processed

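RNA was measured by sequencing in 12 libraries, 3 in each of 4 groups. Per the labels' protocols, RNA was column-extracted and library construction used Illumina's TruSeq RNA kit v2, which is unstranded. Tools named in the submitters' processing notes are STAR, Subread and featureCounts 1.4.6, with build hg38. Their roles, the annotation and the handling of reads that match several places are not given in the sources used here. The authors deposited whole-number counts per gene, not normalized, and, per the file headers, other columns with exon positions, strand and total exon length in bases. No per-sample column was left unused (0).

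Libraries were grouped by line and treatment as labelled. Genes were kept with filterByExpr (minimum count 10, minimum total 15), scaled by TMM and tested with the quasi-likelihood F-test of edgeR 4.0.16 (R 4.3.3), in 1 fit of 4 group means with 8 residual degrees of freedom. It gave 4 contrasts, namely the drug change in PEO1, the drug change in COV362, the first minus the second, and the vehicle libraries of PEO1 against those of COV362. Adjusted p-values are Benjamini-Hochberg over all 14498 tested genes, and a gene was called under 0.05. Standard errors are the absolute log2 fold change divided by the square root of F. RPKM was computed from TMM-scaled CPM and the deposited exon length, for COL11A2 from its chromosome 6 exons. Single values were compared by exact permutation in scipy 1.17.1. Alternatives used DESeq2 1.42.0, limma 3.58.1 (voom), other filters and scalings, exon length and GC offsets (a GC value was found for 94.5% of tested genes), a replicate block and leaving out each library. The offset with GC content, the block within each line and their combination were added after the data had been seen.

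The members and all gene lists were chosen with earlier results of these data known. Every PEO1 library's value is given for chains called with the drug in PEO1 and averaging 1 CPM or more in some group. Values of every library of both lines are given for such chains called in the difference. The same holds for the 3 chains highest in RPKM among the vehicle libraries of each line. Of each collagen-handling list, the 2 called genes with the largest change, averaging 1 CPM or more in the line, are named. LOXL4, BMP1, PXDN and chains outside this rule were named after their values were seen. Letters were checked for pairing by correlating the deviations of same-lettered libraries from their group means. In COV362 these were 0.410, 0.423 and 0.133 for A, B and C. In PEO1 they were 0.302, 0.171 and 0.0813. The vehicle libraries of the lines gave 0.350, 0.164 and 0.148. Whether letters pair is not settled by these values in either line. The main fit has no block, and fits with the letter as a block are given as alternatives. Depth limits chains near the count minimum, and floors of 3 counts cover counting error only.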

Additional observations from a re-analysis of the deposited data

Results flagged for a closer look

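The drug change differed between the lines for 3 chains, by the test of the difference itself in edgeR's quasi-likelihood fit with Benjamini-Hochberg adjustment. COL18A1 changed by −1.52 in PEO1 and −0.23 in COV362, a difference of −1.29 (adjusted p = 0.0355). It was no longer called in 8 of 12 fits without 1 library, with limma-voom (adjusted p = 0.0768), without the A libraries (adjusted p = 0.0807) or with length and GC trends removed (−0.72, adjusted p = 0.0719). COL6A1 changed by −1.52 in PEO1 and −0.30 in COV362, a difference of −1.22 (adjusted p = 0.0437). It was no longer called in 10 of 12 fits without 1 library, with limma-voom (adjusted p = 0.1503), without the A libraries (adjusted p = 0.103), or with length and GC trends removed, alone (−0.68, adjusted p = 0.137) or with the letter as a block (adjusted p = 0.0722). COL5A1 changed by −1.23 in PEO1 and −0.27 in COV362, a difference of −0.96 (adjusted p = 0.0135), and was called in each of the 12 fits without 1 library. With length and GC trends removed, the COL5A1 difference was smaller, −0.80, and still called (adjusted p = 0.00554). For each of the 3 chains, all 3 treated PEO1 libraries lay below all 3 PEO1 DMSO libraries. Selection by tests on these same libraries favours that, so it adds no support for a difference between the lines. The share of all tested genes separated in this way was not counted. COL6A1 rested on 14 to 17 counts per library in PEO1 with prexasertib and 39 to 54 counts in PEO1 with DMSO.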

How the results depend on the processing

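In PEO1 the count of called chains was 10 and ran from 7 (adjusted p under 0.01) to 14 across the alternatives, and from 8 to 11 when 1 library was left out. Between vehicle libraries it was 19 and ran from 16 to 20, also when 1 library was left out. At an adjusted p under 0.05, the share of all tested genes called also moved across the alternatives. It ran from 20.2% to 51.4% in PEO1 and from 40.7% to 71% between vehicle libraries. In COV362 the count of called chains was 0, and 0 in every fit without 1 library. It became 3 with the replicate block, 2 with the replicate block and exon length offset, 3 with the replicate block and exon length and GC offset, 4 with the replicate block within each line, and 1 without the A libraries. In the same order, these fits called 9.65%, 10.7%, 12.5%, 13.6% and 2.25% of all tested genes. The cause was not tested. For the difference between the lines the count of called chains was 3. It became 5 with DESeq2, 1 with limma-voom, 5 with no filter on low counts, 6 with the exon length offset and 0 at an adjusted p under 0.01. Of all tested genes, DESeq2 called 13.6%, limma-voom 6.1%, the fit with no filter 4.5% and the exon length offset 11.3%. The replicate block gave 9 chains, with the exon length offset 9, with the length and GC offset 11, and within each line 9. These stand beside 29.1%, 30.3%, 22.5% and 33.8% of all tested genes. Without 1 library the count of chains ran from 1 to 4. With the replicate block, PEO1 had 13 called chains and the vehicle comparison 19, beside 47.8% and 68.4% of all tested genes. Each prexasertib library was also set against the DMSO libraries of its line. In PEO1 letters A and C, but not B, correlated best with their own letter, as a hint from the data. In COV362 letters A and B did so, but not C.

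Of the named log2 fold changes, those whose sign turned were not called. In PEO1, COL1A1 (−0.33) was 0.0172 with the exon length and GC offset and 0.0168 with the replicate block added. COL5A2 (0.11) was −0.0201 with the exon length offset and −0.0168 with the block added, −0.0813 with the exon length and GC offset and −0.0761 with the block added. COL4A6 (0.40) was −0.0595 with limma-voom. Without 1 library, COL5A2 ran from −0.26 to 0.23, COL4A6 from −0.75 to 0.80 and COL4A5 (−0.04) from −0.30 to 0.11. In COV362 without 1 library, COL17A1 (−0.17) ran from −0.60 to 0.0905, COL18A1 (−0.23) from −0.38 to 0.00494 and COL12A1 (−0.30) from −0.63 to 0.29. COL11A2 between the vehicle groups (−0.41) ran from −1.23 to 0.19. Depth limits the changes of COL4A6, COL6A2, COL7A1, COL9A3, COL11A2, COL13A1 and COL26A1, which rest on 0 to 16 counts per library in PEO1 with DMSO.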
